A study of Mus musculus with 32 samples.

Results

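In the step of fat cell differentiation from day 3 to day 7, insulin is the only added hormone left in the medium. This comparison follows 3T3-L1 cells carrying a short hairpin RNA against Zbtb9 through that step. Its members are 8 of the 32 libraries of the study: 4 knockdown libraries of day 3 and 4 of day 7, picked out by their labels. 3T3-L1 is a mouse preadipocyte line, and all 8 libraries come from this line. At each day 2 libraries carry shRNA #1 and 2 carry shRNA #2, and the labels give the genotype of both as Zbtb9 knockdown and call the cells premature adipocytes. The reference for the comparison is 4 libraries of each day from 3T3-L1 cells with a scramble hairpin (shCtrl), with genotype WT in the labels, so both arms carry a hairpin. All cells had been confluent for 2 days at day 0, when they received 1 µM dexamethasone, 0.5 mM IBMX (3-isobutyl-1-methylxanthine, a phosphodiesterase inhibitor) and 167 nM insulin in medium with 10% FBS. From day 3 that medium was replaced with medium holding 167 nM insulin and neither dexamethasone nor IBMX, and from day 7 with medium without added hormone. The labels do not say whether the cells of days 3 and 7 were taken before or after the medium change of that day. They number the libraries of a group as biological replicates without saying that they came from separate cultures, so p-values measure the spread between these libraries.

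Fat cell differentiation runs through a relay of transcription factors. Cebpb and Cebpd act early, and Pparg and Cebpa then switch on and hold the genes of lipid storage, insulin response and hormone secretion. Dexamethasone acts through the glucocorticoid receptor and IBMX raises cyclic AMP, so the move to insulin alone withdraws both of these inputs. ZBTB9 belongs to the family of zinc finger proteins with a BTB domain, many of which are regulators of transcription.

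Levels are given as normalized reads, that is, the reads of a gene rebuilt from the deposited log2 values and divided by the size factor of the library, which allows a gene to be compared between libraries but not with a longer or shorter gene. The 8 libraries held 23171494 to 27158054 reads in genes. The 4 values of a day are always listed as shRNA #1 replicates 1 and 2, then shRNA #2 replicates 1 and 2. Zbtb9 itself (chromosome 17, 26973167 to 27008376, GRCm38) gave very few reads: 0, 7.41, 8.99 and 4.39 normalized reads at day 3 and 6.09, 9.28, 8.39 and 4.87 at day 7. The control libraries read 6.35 to 12.6 at day 3 and 12.7 to 22.3 at day 7, so the arms overlapped at day 3 and did not at day 7. In the GENCODE M21 annotation Zbtb9 overlaps Ggnbp1 on the same strand, and the gene fell below the expression filter of the knockdown comparison. Summed markers of fat cells (9 genes) ran from 20400 to 26600 at day 3 and from 94000 to 132000 at day 7, and those of preadipocytes and fibroblasts (7 genes) from 138000 to 179000 and from 203000 to 235000. Of these 7, Col1a1 (log2 1.76), Dlk1 (0.98) and Ly6a (0.30) were called higher at day 7, Col3a1 (-0.47) and Thy1 (-0.43) lower, and Pdgfra (0.08) and Pdgfrb (0.29) were not called. In a bulk library a gene can be low because fewer cells express it or because each holds less of its RNA, and these cannot be told apart. Ptprc of leukocytes and Itgam of macrophages, Tie1 and Kdr of endothelium, and Epcam and Cdh1 of epithelium were at or near 0 at both days. Other members of the same marker lists were called higher at day 7, on the log2 scale Cd68 (1.68), Pecam1 (0.63), Vwf (0.71), Krt8 (3.91), Krt18 (2.27) and Krt19 (2.22). Krt8 and Krt18 passed the expression filter only through day 7 libraries. Of the macrophage list 3 genes were tested: beside Cd68, which read 17.4 and 101 normalized reads on average, Cd14 was called lower (-0.62, from 506 to 317) and Csf1r was not called (0.17). The part of these markers in the results was not tested.

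Of 13259 genes tested with the hairpin as a block, limma called 9806 at an adjusted p under 0.05, which is 74.0% of them, 5099 higher (38.5%) and 4707 lower (35.5%) at day 7. The median log2 change over all genes was 0.02. A change of at least 1 on the log2 scale was called in 1668 genes (12.6%), and 1143 of these rose (8.62%) while 525 fell (3.96%). Counts within a gene list are to be read against these shares, since about 3 in 4 genes pass the test in any case. The day 3 and day 7 libraries did not overlap in 62.3% of the genes tested. The same test in control cells called 9752 of 13387 genes (72.8%), with 37.0% of the genes tested called higher and 35.9% lower. Whether the change differed between the arms was tested in one model over all 16 libraries of both days, which called 4449 genes (33.2%), 2419 with a higher change in knockdown cells (18.1%) and 2030 with a lower one (15.2%). With libraries scaled to equal totals the split was 2043 higher and 2515 lower. A difference of at least 1 on the log2 scale was called in 271 genes (2.02%), 163 of them higher (1.22%) and 108 lower (0.807%).

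**Figure D1:**
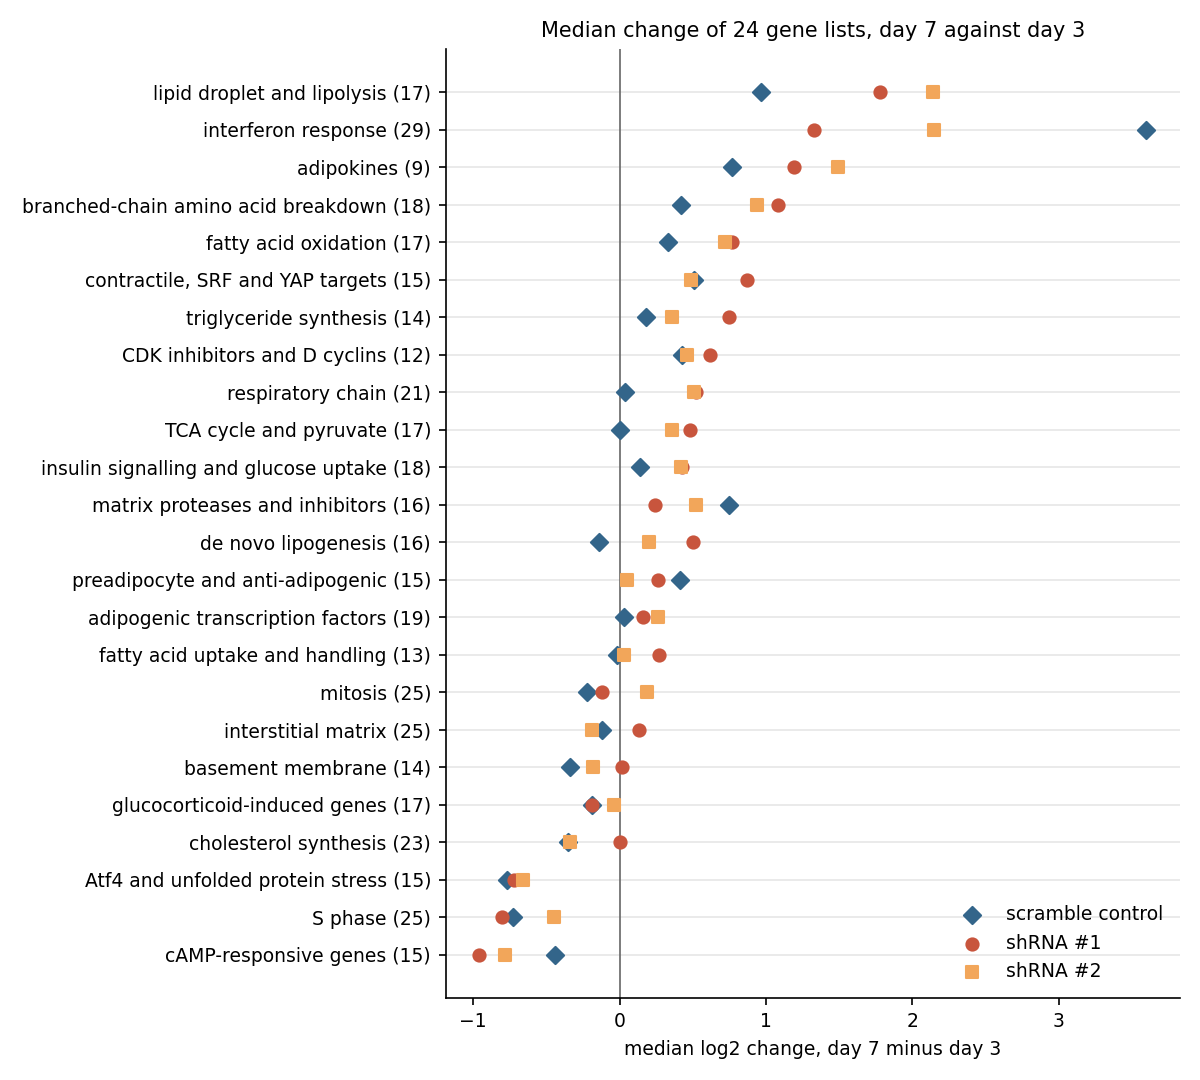
Median log2 change from day 3 to day 7 (horizontal axis) over the tested members of 24 gene lists, with the number of members in parentheses, for shRNA #1, shRNA #2 (2 libraries a day each) and scramble control cells (4 libraries a day). The lists of lipid droplets, branched-chain amino acid breakdown and the respiratory chain lie to the right of the control with both hairpins, and the interferon list lies to its left.

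Among the transcription factors of the fat cell programme Pparg and Cebpa rose. Of 19 tested members 10 rose and 4 fell, and their median change was 0.21 in knockdown cells and 0.03 in control cells. Ppara, counted among the 10, passed the expression filter only through day 7 libraries. Pparg, the nuclear receptor at the centre of the programme, read 3736, 3832, 4155 and 4387 normalized reads at day 3 and 8778, 8919, 8863 and 9479 at day 7. Every day 7 library lay above every day 3 library, and the mean rose 2.24-fold (log2 change 1.13, SE 0.045, adjusted p = 1.94e-13). Cebpa, its partner, read 2351, 2938, 2321 and 3005 at day 3 and 7592, 6991, 5543 and 6745 at day 7, a 2.53-fold rise of the mean (log2 1.29, SE 0.12, adjusted p = 2.66e-05). In control cells Pparg changed by 0.32 and Cebpa by 0.19 on the log2 scale, and the test of the difference gave 0.81 for Pparg (adjusted p = 2.72e-12) and 1.11 for Cebpa (adjusted p = 4.14e-06). The knockdown cells also started higher in Cebpa: the control libraries of day 3 read 1373 to 1434, all below the 4 knockdown libraries of that day.

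Klf15, a factor of mature fat cells that glucocorticoids induce, had the steepest rise of the list. It read 36.3, 50.8, 40.0 and 42.8 at day 3 and 1943, 1674, 1325 and 1456 at day 7, 37.7-fold higher, against 11.3-fold in control cells. Nr1h3, the oxysterol receptor LXR alpha, rose 4.28-fold, and Ppargc1b, a coactivator of mitochondrial genes, rose 2.69-fold. The early factor Cebpb fell from a mean of 19380 to 11640 (log2 -0.71, adjusted p = 1.57e-09), and Klf5 and Klf4, which act before Pparg, changed by -1.73 and -1.01. Cebpd, the other early factor, rose with both hairpins, by 0.43 with shRNA #1 and 0.91 with shRNA #2. Across the list 10 members had a higher change in knockdown than in control cells and none a lower one. Srebf1, Ebf1, Stat5a, Stat5b and Zfp423 did not pass the test in knockdown cells.

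Genes of the lipid droplet and of lipolysis had the largest median change of the 24 lists in knockdown cells on the deposited scale. Of 17 tested members 14 rose and 2 fell, with a median of 2.08 on the log2 scale against 0.97 in control cells. Plin1, which coats the droplet and guards it from lipases, read 416, 521, 313 and 468 at day 3 and 8621, 8036, 5189 and 6387 at day 7, 16.4-fold higher. Cidec, which fuses droplets, read 643, 511, 738 and 1029 at day 3 and 19190, 17740, 11230 and 14110 at day 7. For both genes the days were fully apart, and the change exceeded that of control cells for Plin1 (difference 1.02, adjusted p = 0.000322), while for Cidec the difference did not pass the test (0.50, adjusted p = 0.204). Lipe, the hormone-sensitive lipase, showed a wider gap between the arms. It rose in knockdown cells, which read 3365, 3967, 4358 and 5413 at day 3 and 12510, 12140, 10460 and 13440 at day 7, and the control libraries read 2304 to 2615 at day 3 and 2673 to 2852 at day 7 (difference of the changes 1.29, adjusted p = 2.42e-05).

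Receptors that set lipolysis rose too. Adrb3, the beta-3 adrenergic receptor typical of fat cells, read 0 to 5.68 normalized reads at day 3 and 25.2 to 96.4 at day 7. Hcar2, the nicotinic acid receptor that restrains lipolysis, rose 10.8-fold in knockdown cells and 3.81-fold in control cells (difference 1.94, adjusted p = 2.61e-10). Aqp7, the glycerol channel, had at most 3 reads in every knockdown library of day 3 and read 71, 106, 118 and 159 at day 7, at least 35.3-fold higher. Abhd5, the coactivator of the lipase Pnpla2, and Fitm2 were the 2 members that fell, by 0.98 and 0.60. Pnpla2 itself rose by 0.46 in knockdown cells and fell by 0.11 in control cells, both called. The difference from control was called in 14 of the 17 members, with a higher change in knockdown cells for 13 and a lower one for Plin2 (-0.39).

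**Figure D2:**
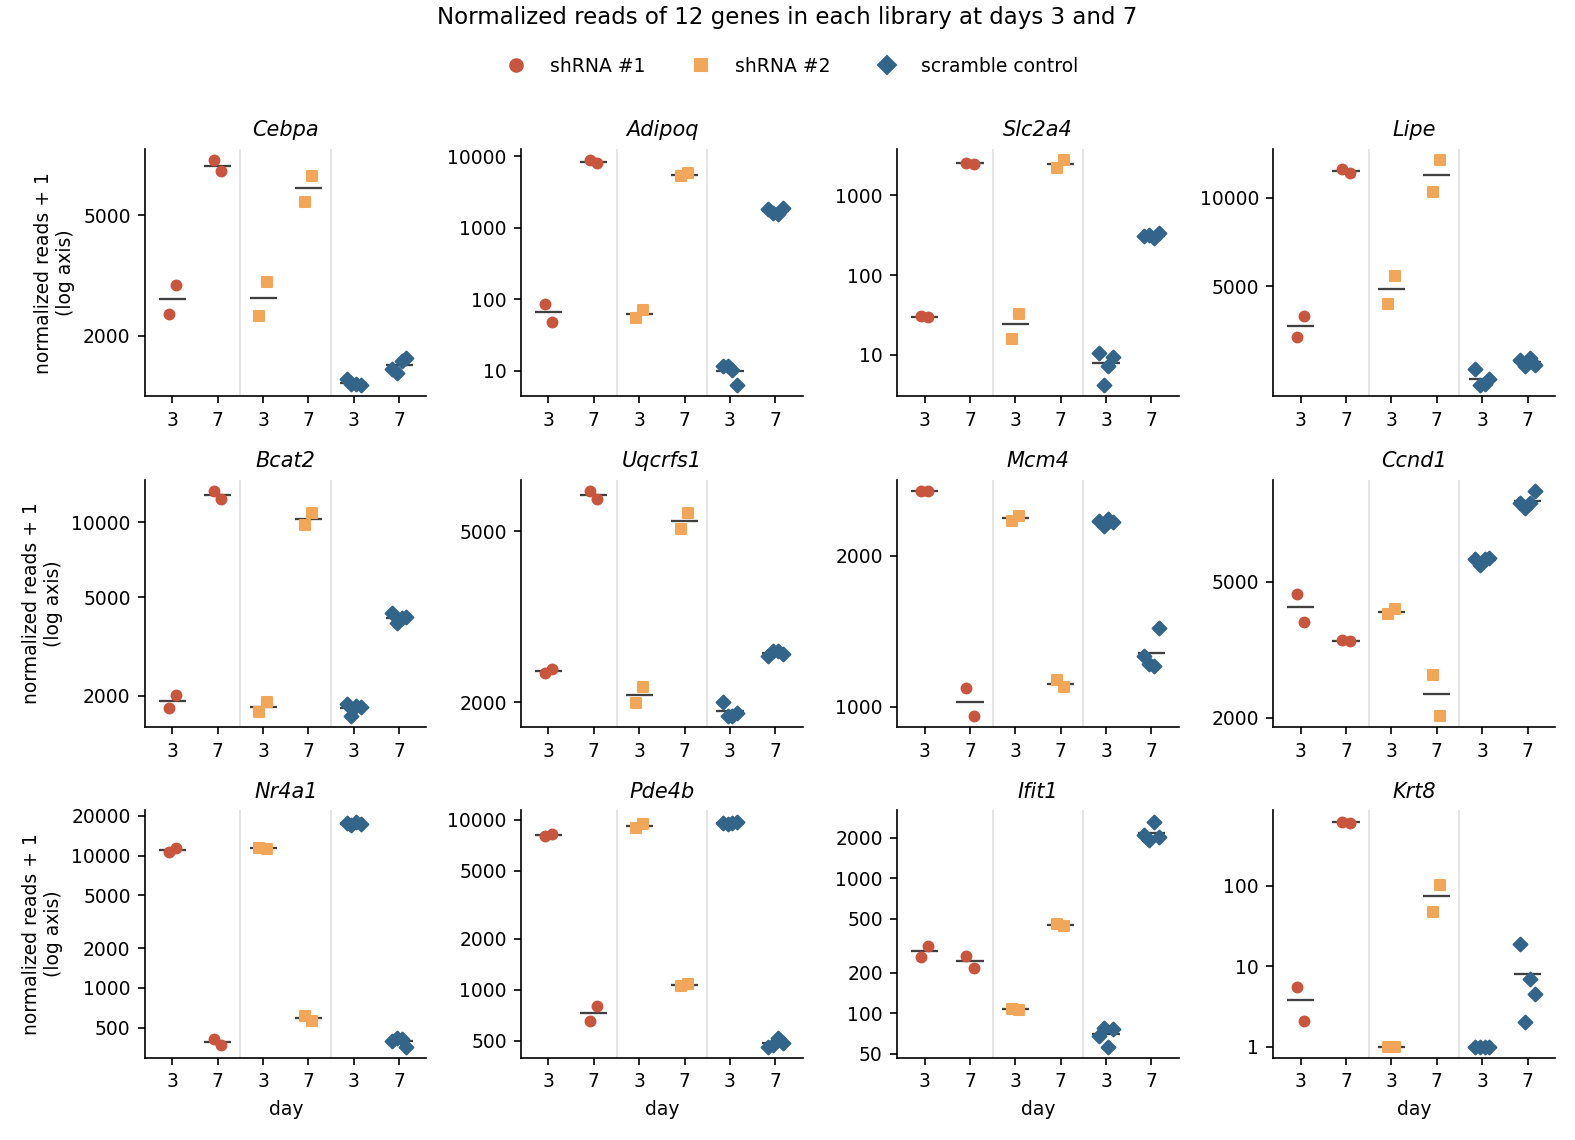
Normalized reads plus 1 (vertical axis, logarithmic) of 12 genes in each library of days 3 and 7, with a point for each library and a line at the mean of its group. Adipoq and Slc2a4 of knockdown cells are fully apart between the days, Ccnd1 moves down in knockdown and up in control cells, and Ifit1 shows no common direction in the hairpins.

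Enzymes that build triglyceride moved in both directions. Of 14 tested members 7 rose and 5 fell, with a median change of 0.56 in knockdown cells, 0.75 with shRNA #1 and 0.36 with shRNA #2. Pck1, counted among the 7, passed the expression filter only through day 7 libraries. Gpd1, which makes glycerol 3-phosphate, read 154, 82.5, 153 and 333 at day 3 and 1806, 1980, 3790 and 4525 at day 7. Agpat2, Lpin1 and Dgat1, which act at successive later steps, rose 2.51-fold, 2.46-fold and 2.46-fold, and in control cells by 1.53, 1.26 and 1.25-fold. Lpin1 and Dgat1 differed from control by 0.93 (adjusted p = 2.7e-10) and 0.94 (adjusted p = 1.65e-08). The acyltransferases Gpat3 and Gpat4 fell by 0.65 and 0.42, and glycerol kinase Gk changed by -1.05. The list median came to 0.28 and 0.33 over 13 members when shRNA #1 replicate 1 or replicate 2 of day 7 was left out.

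Genes of de novo lipogenesis moved in both directions. Of 16 tested members 9 rose and 6 fell, with a median of 0.29, 0.50 with shRNA #1 and 0.20 with shRNA #2. The change was called smaller with shRNA #2 for 6 of the 16 and larger for 0. In control cells 6 rose and 7 fell, with a median of -0.14. Scd1, the main stearoyl-CoA desaturase, read 6044, 6470, 14130 and 17090 at day 3 and 32950, 32010, 36240 and 45160 at day 7. All day 7 libraries were above all day 3 libraries, and the rise was larger with shRNA #1 (2.31) than with shRNA #2 (1.34, adjusted p of the difference = 0.00303). Fasn, fatty acid synthase, gave 7668, 7723, 9017 and 9768 at day 3 and 12730, 11610, 6743 and 9295 at day 7, overlapping between the days, with an adjusted p of 0.44. Its change was 0.64 with shRNA #1 and -0.24 with shRNA #2 (adjusted p of the difference = 0.0446). That call was lost in 10 of 18 alternatives, 6 of which left out 1 library (adjusted p up to 0.201): each library of shRNA #1 at either day and each library of shRNA #2 at day 3. Acaca and Acly, which supply malonyl-CoA and acetyl-CoA, fell by 0.73 and 0.54, and the elongase Elovl6 changed by -1.91. Thrsp, a nuclear protein of lipogenic tissues, had few reads at day 3 (0 to 5.49) and 191 to 324 at day 7.

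Genes of fatty acid uptake moved in both directions. Of 13 tested members 6 rose and 4 fell, and the median was 0.05 with both hairpins together, 0.27 with shRNA #1 and 0.03 with shRNA #2. The change was called smaller with shRNA #2 for 4 of the 13 and larger for 0. Fabp4, the fatty acid carrier of fat cells, read 9582, 10260, 11960 and 12030 at day 3 and 55280, 61360, 38570 and 49760 at day 7, 4.68-fold higher (log2 2.15, SE 0.16, adjusted p = 3.34e-05). Lpl, the lipoprotein lipase, read 25040, 29550, 30500 and 34550 at day 3 and 81070, 83750, 48440 and 56480 at day 7. The days were apart for both genes and both rose more with shRNA #1, by 2.48 against 1.82 for Fabp4 and by 1.55 against 0.67 for Lpl. Cd36, a fatty acid translocase, rose by 0.41 in knockdown and by 0.94 in control cells, a lower change in knockdown cells (adjusted p = 6.9e-05). Acsl1, an acyl-CoA synthetase, rose 2.15-fold, while its relatives Acsl3 and Acsl4 changed by -0.50 and -1.20.

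Genes of secreted fat cell products rose steeply. Of 9 tested adipokines 7 rose and 1 fell, with a median of 1.34 against 0.77 in control cells (0.85 in knockdown cells with no filter on low values). Adipoq, which encodes adiponectin (chromosome 16, 23146536 to 23158028), had the largest log2 change of the genes named here on the deposited scale, which shrinks low values, and several others, among them Lgals12 and Ghrh, rose more in folds of reads. It read 85.2, 46.5, 53 and 69.2 at day 3 and 8746, 7936, 5319 and 5727 at day 7, 109-fold higher (log2 6.29, SE 0.18, adjusted p = 3.35e-08). Control cells read 5.32 to 10.6 at day 3 and 1530 to 1873 at day 7, 191-fold higher. On the deposited log2 scale the change was higher in knockdown cells by 0.57 (adjusted p = 0.0187). The sign turned on rebuilt reads, where the difference was -0.73 by voom (adjusted p = 0.234) and -0.70 on log2 of normalized reads plus 1 (adjusted p = 0.0982), so the arms are not ordered for the steepness of Adipoq. Its level was higher in knockdown cells at both days in these libraries.

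Cfd, the complement factor adipsin, read 167, 98.4, 126 and 166 at day 3 and 6595, 6020, 6585 and 7334 at day 7. Retn, resistin, read 78.4, 108, 98.9 and 97.7 at day 3 and 1859, 1586, 1376 and 1607 at day 7. For both genes every day 7 library lay above every day 3 library, and the mean rose, Cfd 47.6-fold and Retn 16.8-fold. Rarres2, the precursor of chemerin, had a small spread, with 620.1, 581, 672 and 641 at day 3 and 13260, 12980, 14270 and 14980 at day 7 (log2 4.30, SE 0.044). Angptl2 rose 4.68-fold and Nampt, an enzyme of NAD synthesis that is also secreted, 2.56-fold. Cxcl12, a chemokine of stromal cells, was the member that fell, from a mean of 55120 to 24000. Lep, which encodes leptin, read 0 to 5.80 normalized reads at day 7 and was too low to be tested.

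Among genes of insulin response and glucose uptake the insulin-regulated transporter rose most. Of 18 tested members of this list 11 rose and 5 fell, with a median of 0.39. Slc2a4, the insulin-regulated glucose transporter GLUT4 (chromosome 11, 69942539 to 69948188), read 29.5, 28.6, 15 and 31.8 at day 3 and 2553, 2472, 2217 and 2753 at day 7. It was 95.3-fold higher (log2 5.82, SE 0.12, adjusted p = 5.59e-16), and 45.5-fold higher in control cells, where day 7 read 290.3 to 334. The difference of the changes was 2.06 (adjusted p = 5e-11), and by voom on rebuilt reads it was 1.11 (adjusted p = 0.0747). Slc2a1, the basal transporter, rose 3.33-fold, Hk2, hexokinase 2, 2.39-fold, and Tbc1d4, which gates GLUT4 traffic, 1.73-fold. Pde3b, the phosphodiesterase through which insulin lowers cyclic AMP, rose 9.53-fold in knockdown and 3.15-fold in control cells (difference 1.45, adjusted p = 6.63e-09). The receptor Insr rose by 0.38, Irs2 changed by -1.0, and Akt1 and Pik3r1 changed by -0.75 and -0.83.

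Mitochondrial genes rose as a block in knockdown cells while several of them fell in control cells. In fatty acid oxidation 15 of 17 tested members rose and 1 fell (median 0.74, control 0.33), in the respiratory chain 19 of 21 rose and 1 fell (median 0.47, control 0.04), and in the TCA cycle 14 of 17 rose and 1 fell (median 0.45, control 0.00). The respiratory chain had a higher change in knockdown cells for 20 of its 21 members and a lower one for none. Uqcrfs1, the iron-sulphur subunit of complex III, read 2338, 2392, 1993 and 2163 at day 3 and 6209, 5951, 5055 and 5506 at day 7, 2.56-fold higher, against 1.37-fold in control cells. Its days were fully apart and the difference was 0.87 (adjusted p = 1.41e-12). Mdh1, the cytosolic malate dehydrogenase, rose 2.52-fold, and Slc25a10, the dicarboxylate carrier, 5.04-fold. Cycs, cytochrome c, was the 1 chain member that fell, by 0.59 in knockdown and by 1.38 in control cells. Cox7a1, a muscle-type subunit of complex IV, rose at least 10.2-fold from a day 3 level of at most 3 reads in each library. It is counted among the 19 that rose, but passed the expression filter only through day 7 libraries. A higher level at day 7 was thus a condition of its being tested.

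Several mitochondrial enzymes moved in opposite directions in the arms. Idh3a, a subunit of isocitrate dehydrogenase, changed by 0.30 in knockdown cells and by -0.48 in control cells, Cyc1 of complex III by 0.43 and -0.30, and Mdh2, the mitochondrial malate dehydrogenase, by 0.32 and -0.28. Each of these changes and each difference between the arms was called. Over all list members tested in both arms, 19 of 433 were called in opposite directions, 15 of them higher in knockdown and lower in control cells. Over all genes tested the share called in opposite directions was 2.11% (280 genes). In oxidation, Cpt2 and Acads rose 2.63-fold and 2.77-fold, while Cpt1a, the entry enzyme, changed by -0.24 in knockdown and 0.42 in control cells. The Cpt1a call in knockdown cells was lost without the hairpin block and with shRNA #1 alone. Ppargc1a, a coactivator of mitochondrial genes, fell in the same libraries, which read 497, 507, 433 and 464 at day 3 and 136, 145, 275 and 192 at day 7.

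Genes that break down branched-chain amino acids rose together. Of 18 tested members 17 rose, none fell and Dld alone did not pass the test, and all 18 had a higher change in knockdown than in control cells. The median was 1.01 against 0.42 in control cells. Bcat2, the mitochondrial transaminase that opens the pathway (chromosome 7, 45570153 to 45589711), read 1782, 2022, 1729 and 1892 at day 3 and 13350, 12450, 9718 and 10910 at day 7, 6.25-fold higher (log2 2.55, SE 0.062, adjusted p = 7.75e-15). The control libraries read 1662 to 1853 at day 3 and reached 3946 to 4303, so the arms overlapped at day 3 and were apart at day 7 (difference 1.38, adjusted p = 8.09e-14). Aldh6a1, of valine breakdown, rose 4.33-fold, Hibch, of the same branch, 2.79-fold, and Bckdha of the dehydrogenase complex 2.63-fold. Bckdhb, its partner subunit, changed by 0.47 in knockdown and -0.22 in control cells.

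**Figure D3:**
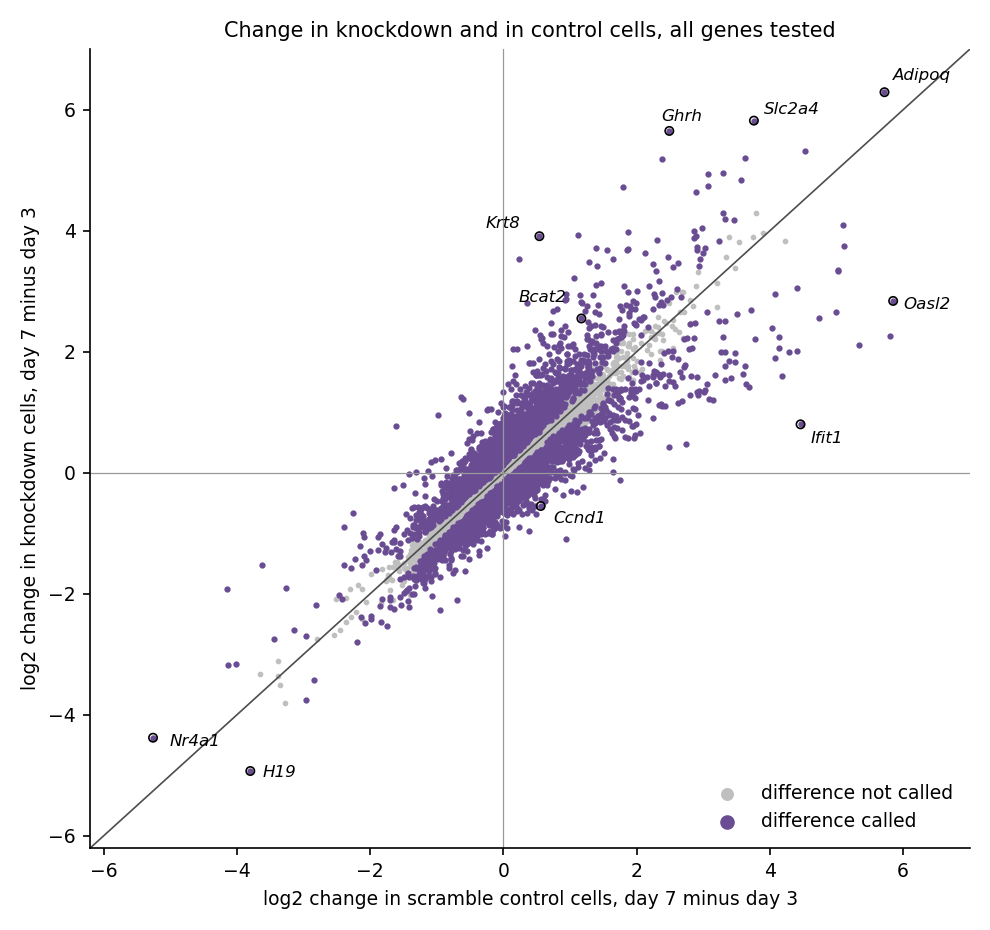
Log2 change from day 3 to day 7 in knockdown cells (vertical axis, 8 libraries) against that in scramble control cells (horizontal axis, 8 libraries), with a point for each of the 13259 genes tested in both and genes with a called difference in purple. Most points lie along the line of equal change, with Ghrh, Krt8 and Slc2a4 above it and Ifit1 and Oasl2 below it.

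Genes that answer cyclic AMP fell between day 3 and day 7, and their promoters are shown because members moved together. Printed 5′ to 3′ are a start of Nr4a1, an immediate early nuclear receptor (250 bases before a RefSeq start, GRCm38.p6, chr15:101266596-101266845, plus strand), and a start of Pde4b, a cyclic AMP phosphodiesterase (chr4:102421305-102421554, plus strand). Of a gene's RefSeq starts, the first whose window held a match was printed, so the match was a condition of the choice. Matches to TGACG, the half-site of the cyclic AMP response element, on either strand are in capitals. The capitals show the reverse complement where the match lies on the other strand.
Nr4a1: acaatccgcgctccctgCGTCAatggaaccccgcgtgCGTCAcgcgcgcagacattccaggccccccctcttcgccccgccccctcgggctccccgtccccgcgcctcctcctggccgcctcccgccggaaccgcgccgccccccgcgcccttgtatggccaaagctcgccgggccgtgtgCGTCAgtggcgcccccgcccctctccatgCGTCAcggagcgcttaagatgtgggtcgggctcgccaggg
Pde4b: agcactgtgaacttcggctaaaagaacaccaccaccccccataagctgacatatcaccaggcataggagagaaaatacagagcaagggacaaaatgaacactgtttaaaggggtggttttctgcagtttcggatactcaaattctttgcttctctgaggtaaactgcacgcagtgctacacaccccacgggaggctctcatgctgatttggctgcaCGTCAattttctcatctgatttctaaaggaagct
Such a match lay in this window of any of the gene's RefSeq starts in 12 of the 13 list genes with a RefSeq promoter (92.3%) and in 19.8% of 27025 genes. It describes the letters only.

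Of 15 tested cyclic AMP genes 12 fell and 1 rose, with a median change of -0.83, and -0.44 in control cells. The median of the members' own differences between the arms was -0.06, and 6 members were called to fall less in knockdown than in control cells, while Atf3, Gem, Nr4a2 and Ppargc1a, the other 4 called, had the lower change in knockdown cells. Nr4a1 read 10660, 11350, 11360 and 11310 at day 3 and 408, 369, 617 and 560.1 at day 7, 22.9-fold lower (log2 -4.38, SE 0.099, adjusted p = 1.28e-10). The control libraries stood higher at day 3, 16980 to 18070, and reached 359 to 419, a 44.2-fold fall (difference 0.88, adjusted p = 9.91e-06). Pde4b read 8014, 8255, 8983 and 9388 at day 3 and 650.5, 805, 1057 and 1086 at day 7, 9.62-fold lower, and 19.7-fold lower in control cells. For both genes every day 7 library lay below every day 3 library, and the fall was smaller in knockdown cells. Rgs2, an inhibitor of G protein signalling, fell 2.97-fold, and the immediate early factors Junb and Fos 2.97-fold and 2.35-fold. Atf3 was an exception between the arms, with a change of -0.50 in knockdown and 0.17 in control cells. Pde4a was the member that rose, by 0.54, and Crem and Fosb did not pass the test.

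Genes that glucocorticoids induce did not fall together between day 3 and day 7, the step without added dexamethasone. Of 17 tested members 6 rose and 8 fell, with a median of -0.09. In control cells 5 rose and 11 fell, with a median of -0.19. The mean log2 level of this list in knockdown cells (n = 4 a day) climbed from 9.33 on day 0 to 12.06 on day 3. Day 7 stood at 12.08, and only the day 11 libraries were lower again, with 10.51. Insulin had also been left out by then, and the cause of the later fall was not tested. Fkbp5, a chaperone partner of the receptor, read 26860, 25390, 25880 and 26430 at day 3 and 35080, 36230, 32050 and 34050 at day 7. It rose by 0.38 in knockdown cells (SE 0.046, adjusted p = 6.48e-07) and changed by -0.04 in control cells, and at day 11 its mean in knockdown cells was 2689. Tsc22d3, also called GILZ, read 11350 to 16720 at day 3 and 6348 to 7306 at day 7, and Sgk1, a kinase, 1479 to 1813 and 639 to 854. Both fell further than in control cells, with differences of -0.59 and -0.54. Across the list 3 members had a lower change in knockdown than in control cells and 7 a higher one. Between the hairpins the change was called larger with shRNA #2 for 6 members and smaller for 1. The metallothioneins Mt1 and Mt2, near-identical genes between which reads may be shared, rose 2.36-fold and 2.76-fold. Pdk4, which restrains pyruvate oxidation, rose by 0.59 with shRNA #1 and 1.48 with shRNA #2.

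Interferon response genes rose in knockdown cells and rose far more in control cells. The promoters of 3 genes of the list are printed because its members moved together (250 bases before the RefSeq start, GRCm38.p6, 5′ to 3′), with matches to GAAA, any pair of bases and GAAA again (both blocks and the bases between them), a core of the interferon-stimulated response element, on either strand in capitals (again as the reverse complement where it lies on the other strand). They are Ifit1 (chr19:34640639-34640888, plus strand), Ifit3 (chr19:34583279-34583528, plus strand) and Isg15 (chr4:156200819-156201068, minus strand), and in Isg15 the 3 matches overlap.
Ifit1: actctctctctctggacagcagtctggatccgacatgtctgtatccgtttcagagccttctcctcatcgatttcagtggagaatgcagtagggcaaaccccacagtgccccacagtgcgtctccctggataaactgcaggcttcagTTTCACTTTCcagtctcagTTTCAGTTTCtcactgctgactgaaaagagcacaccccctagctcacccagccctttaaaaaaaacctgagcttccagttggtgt
Ifit3: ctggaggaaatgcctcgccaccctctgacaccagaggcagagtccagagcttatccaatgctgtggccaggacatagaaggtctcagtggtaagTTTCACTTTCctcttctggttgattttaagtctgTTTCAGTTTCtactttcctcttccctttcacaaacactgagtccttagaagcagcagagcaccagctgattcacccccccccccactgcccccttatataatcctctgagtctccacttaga
Isg15: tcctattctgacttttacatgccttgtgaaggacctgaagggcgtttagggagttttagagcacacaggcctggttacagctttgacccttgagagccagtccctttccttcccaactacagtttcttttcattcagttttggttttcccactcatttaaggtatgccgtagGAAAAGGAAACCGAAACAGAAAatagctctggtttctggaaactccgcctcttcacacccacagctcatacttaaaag
Here too the window printed was the first of the gene's RefSeq starts that held a match. A match was found in this window of any of the gene's starts in 11 of the 21 list genes with a RefSeq promoter (52.4%) and in 3.46% of 27025 genes.

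Of 29 tested interferon genes 27 rose in knockdown cells and none fell, and all 29 had a lower change than in control cells. The median was 1.75 in knockdown cells, 1.33 with shRNA #1 and 2.15 with shRNA #2, against 3.60 in control cells. Ifit1, which binds foreign RNA, did not pass the test. It read 260.1, 315, 107 and 105 at day 3 and 267, 216, 455 and 441 at day 7, overlapping between the days, and the control libraries read 55.5 to 77.2 at day 3 and 1921 to 2637 at day 7 (difference -3.66, adjusted p = 6.8e-05). The hairpins went apart: with shRNA #1 both libraries of day 7 stood near or below those of day 3 (change -0.23), and with shRNA #2 both stood above (change 1.83, adjusted p of the difference = 2.81e-07). At day 3 both shRNA #1 libraries were above the shRNA #2 libraries, and all 4 were above the control range.

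Isg15, a ubiquitin-like protein, read 296, 213, 116 and 114 at day 3 and 398, 433, 679 and 550.4 at day 7, 2.79-fold higher, against 16.3-fold in control cells. Oasl2, a relative of the oligoadenylate synthetases, read 137, 99.5, 54 and 26.4 at day 3 and 547, 529, 959 and 830 at day 7. The days did not overlap for either gene, and the rise was larger with shRNA #2, by 1.49 for Isg15 and 1.79 for Oasl2. Irf7, the factor that amplifies the response, read 40.9, 24.3, 15 and 22 at day 3 and 356, 378, 671 and 624 at day 7, 19.9-fold higher, and 70.7-fold in control cells. Ifit3 and Ifit3b, near-identical copies that may share reads, rose 9.49-fold and 15-fold in knockdown cells and 157-fold and 286-fold in control cells. Oas1a, Oas2 and Oas3 had at most 3 reads in each day 3 library of both arms and were at least 13.9-fold, 14.1-fold and 18.8-fold higher at day 7, while the control bounds were 67.8-fold, 70.4-fold and 61.7-fold.

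Of the 29 members 22 had a larger rise with shRNA #2 than with shRNA #1 (called), and none a smaller one. Over all genes tested the shares were 1.75% larger and 2.48% smaller. Without limma's trend and robust estimation 28 of 13259 genes were called at all, 21 of them larger with shRNA #2. Isg15, Ifit3b, Oasl2, Ifi44 and Mx2 then lost the call, and Ifit1, Ifit3 and Rtp4 kept it. The mean log2 level of the list in knockdown cells was 9.28 ± 0.44 (SD, n = 4) at day 0, then 6.19 ± 0.32 at day 3 and 7.94 ± 0.29 at day 7, and ended at 9.08 ± 1.01 at day 11. In control cells it was 6.03 ± 0.04 at day 3 and 9.63 ± 0.23 at day 7, so the arms overlapped at day 3 and were apart at day 7. On rebuilt reads the median rise in knockdown cells was 2.94 by voom and 2.89 on log2 of normalized reads plus 1, above the 1.75 of the deposited scale, and by voom 22 of the 29 differences from control were called, all lower in knockdown cells.

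**Figure D4:**
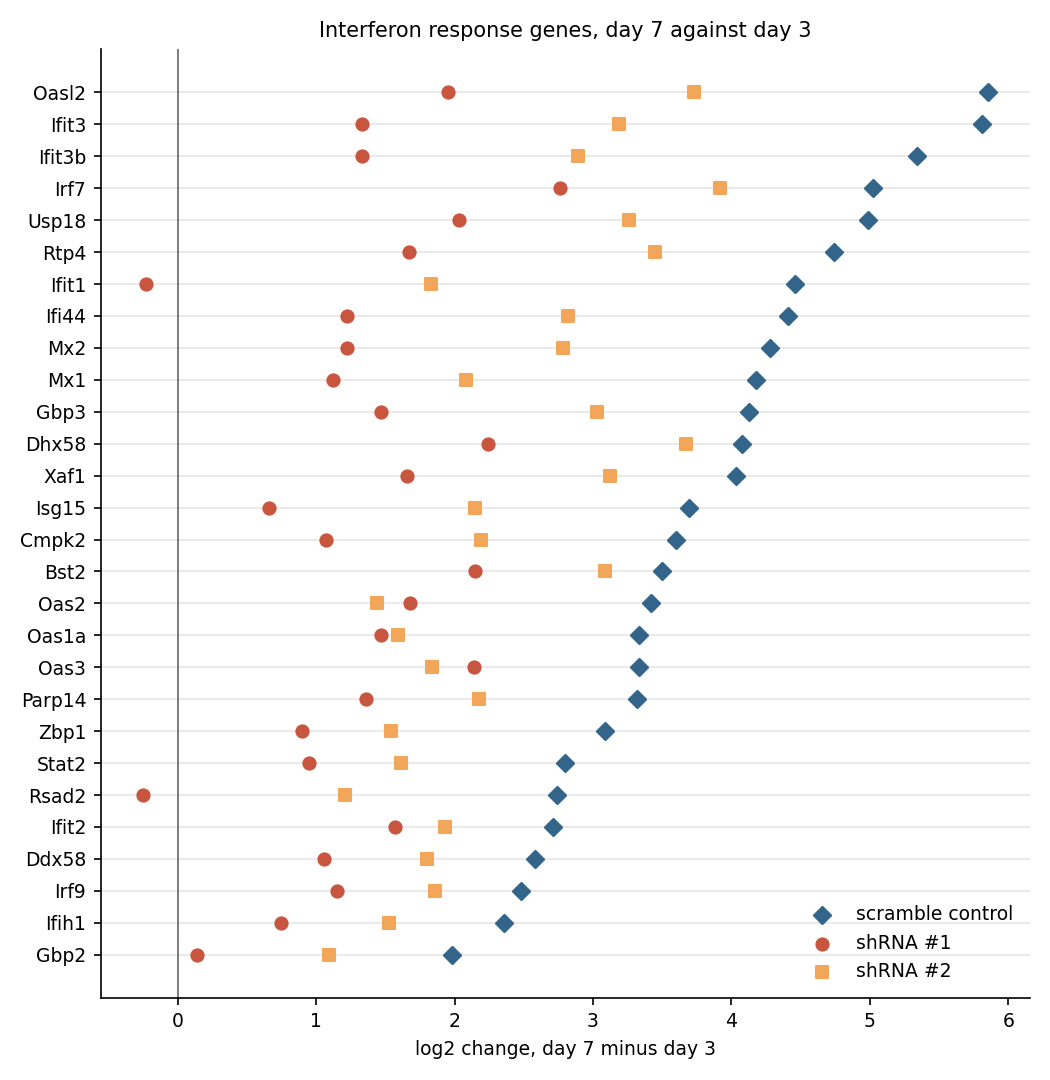
Log2 change from day 3 to day 7 (horizontal axis) of 28 of the 29 tested interferon response genes, ordered by the change in scramble control cells, with a point each for shRNA #1, shRNA #2 and control. The control point lies farthest to the right for every gene shown, and Ifit1 and Rsad2 with shRNA #1 lie left of 0.

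Cell cycle genes separated by phase in knockdown cells. Of 25 tested S phase genes 21 fell and 1, E2f1, rose, with a median of -0.63 and -0.73 in control cells. Mcm4, a subunit of the replicative helicase, read 2694, 2691, 2343 and 2405 at day 3 and 1086, 957, 1127 and 1091 at day 7, 2.38-fold lower (log2 -1.19, SE 0.06, adjusted p = 4.56e-12). Its fall was larger than that of control cells (difference -0.36, adjusted p = 0.000745), as for Mcm3 (-0.28) and Mcm6 (-0.27), while Ccne1, Ccne2, Cdc6, Cdc45 and Gins1 had a higher change in knockdown cells. Pcna, the sliding clamp, fell 1.92-fold.

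Mitotic genes did not share that fall. Of 25 tested members 6 rose and 6 fell, with a median of 0.01, -0.12 with shRNA #1 and 0.19 with shRNA #2. Top2a, topoisomerase II, read 7164, 7219, 6897 and 7165 at day 3 and 2727, 2510, 2951 and 3455 at day 7, 2.44-fold lower. The kinases Plk1 and Aurkb and the cyclin Ccnb2 rose 1.91-fold, 1.71-fold and 1.93-fold. Mki67, the proliferation marker, read 1673, 1699, 1957 and 2095 at day 3 and 1550, 1484, 1579 and 2054 at day 7, overlapping, with a change of -0.15 whose call was lost in 11 of 23 alternatives (adjusted p up to 0.202). In 12 of the 25 genes the change was higher in knockdown than in control cells and in none lower, a count of 1 with shRNA #1 alone against control and of 6 when libraries were scaled to equal totals.

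Inhibitors of the cycle rose and the D cyclins went apart. Of 12 tested members 9 rose and 3 fell, with a median of 0.55. Against control cells the change was called larger in knockdown cells for 4 of the 12 and smaller for 6 (median difference -0.12). The kinase inhibitors Cdkn1b, Cdkn2c and Cdkn1a rose 1.88-fold, 2.12-fold and 1.48-fold, and Cdkn2c differed from control (0.81, adjusted p = 2.24e-07). Rb1, which holds back entry into S phase, rose by 0.82 in knockdown and changed by 0.07 in control cells. Ccnd1, cyclin D1, read 4615, 3823, 4017 and 4162 at day 3 and 3372, 3355, 2674 and 2025 at day 7 and fell by 0.55 (SE 0.13, adjusted p = 0.00861). In control cells it rose and read 5576 to 5861 at day 3 and 8216 to 9208 at day 7 (log2 0.56), and the difference was -1.11 (adjusted p = 4.99e-05).

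Most stress genes fell and sterol genes moved in both directions. Of 15 tested genes of Atf4 and of unfolded protein stress 12 fell and 3 rose, with a median of -0.61 and -0.77 in control cells. Slc7a11, the cystine transporter, fell 5.75-fold, Asns, asparagine synthetase, 2.34-fold, Phgdh, of serine synthesis, 2.22-fold, and Atf4 itself 1.92-fold. The 3 that rose were Hsp90b1, a chaperone (0.51), Xbp1 and Ddit3, a transcription factor that Atf4 induces (0.23). Xbp1 changed by 0.28 in knockdown and -0.34 in control cells, and the first call was lost with shRNA #2 alone. Of 23 tested cholesterol genes 7 rose and 12 fell, with a median of -0.22, 0.00 with shRNA #1 and -0.34 with shRNA #2. Insig1, which retains the sterol sensor in the endoplasmic reticulum, read 532, 533, 617 and 562 at day 3 and 2600, 2481, 1791 and 2107 at day 7, 4.00-fold higher, against 1.48-fold in control cells (difference 1.35, adjusted p = 6.18e-11). Hsd17b7, a reductase of the pathway, fell 4.65-fold, and Hmgcs1, an early synthase of the pathway, rose by 0.64.

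Genes of the extracellular matrix changed without a common direction. Of 25 tested genes of the interstitial matrix 11 rose and 12 fell (median -0.03), and of 14 of the basement membrane 5 rose and 6 fell (median -0.06). The interstitial median was 0.13 with shRNA #1 and -0.19 with shRNA #2, and the change was called smaller with shRNA #2 for 9 of the 25 and larger for 0. Col1a1, of fibrillar collagen, read 19240, 18600, 25130 and 24820 at day 3 and 78110, 71860, 75790 and 78970 at day 7, 3.47-fold higher. The crosslinking enzyme Lox rose 5.32-fold, and Loxl2 7.54-fold in knockdown and 3.61-fold in control cells. Fbn1, fibrillin, Tnc, tenascin C, and Postn, periostin, fell 2.76-fold, 3.62-fold and 2.08-fold. Ogn, osteoglycin, rose less than in control cells, 3.07-fold against 12.2-fold (difference -1.67, adjusted p = 5.9e-08). The laminins Lamc1 and Lamb1 fell 2.02-fold and 1.79-fold, while Lama5 changed by 0.66 in knockdown and -0.34 in control cells (difference 1.01, adjusted p = 2e-06).

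Most proteases of the matrix and their inhibitors had a lower change than in control cells. Of 16 tested members 9 rose and 3 fell, with a median of 0.35 against 0.75, and 10 had a lower and 1 a higher change in knockdown cells. Mmp9, a gelatinase, rose 4.28-fold against 7.56-fold, and Timp2, an inhibitor, 1.14-fold against 1.82-fold (difference -0.65, adjusted p = 7.51e-10). Adamts1 and Adamts5, which cut proteoglycans, fell 2.48-fold and 2.88-fold. With a stricter expression filter the list median was 0.19.

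Genes of the precursor state moved in both directions. Of 15 tested preadipocyte and anti-adipogenic genes 8 rose and 5 fell, with a median of 0.23 (0.26 with shRNA #1 and 0.05 with shRNA #2) and 0.41 in control cells. The day 7 libraries lay fully above day 3 in 4 of the 15 and fully below in 5. Dlk1, the classic inhibitor made by preadipocytes, read 41140, 38790, 31910 and 34010 at day 3 and 85310, 67310, 72350 and 67800 at day 7, 2.01-fold higher, and 3.09-fold in control cells (difference -0.60, adjusted p = 3.97e-06). Hes1, a Notch target, fell 2.65-fold and Klf2, an inhibitor of Pparg, rose 5.38-fold. Of 15 tested contractile genes and SRF or YAP targets 10 rose and 4 fell, with a median of 0.70. Acta2, smooth muscle actin, read 169, 151, 154 and 164 at day 3 and 1366, 1304, 686 and 574 at day 7, and Lmod1, leiomodin, rose 13.4-fold, while Ccn1, also called Cyr61, and Flna, filamin A, fell 2.50-fold and 2.26-fold. The summed muscle markers were higher in the same libraries, 87.4 to 161 at day 3 and 547 to 669 at day 7, carried by Des, with Myh3 and Ckm at or near 0, and their part in the contractile result was not tested.

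The 12 largest rises mixed fat cell genes with genes of other tissues. Beside Adipoq, Slc2a4, Cfd, Klf15 and Rarres2 they held Lgals12, a galectin of the lipid droplet (163-fold), Aoc3, a surface amine oxidase (39.1-fold), and Mrap, the accessory protein of the ACTH receptor (45.7-fold). Trem2, a lipid-binding receptor best known from macrophages, read 6.81, 5.29, 9.99 and 12.1 at day 3 and 889, 839.9, 693 and 834 at day 7. The sum of 5 macrophage markers was 470 to 631 at day 3 and 349 to 499 at day 7. Of the 3 tested, Cd68, a lysosomal protein, rose by 1.68 and Cd14 fell by 0.62, and Ptprc and Itgam were at or near 0. Ghrh, growth hormone-releasing hormone (chromosome 2, 157329497 to 157347506), had at most 3 reads in each day 3 library and read 776, 782, 868 and 1018 at day 7, at least 268-fold higher. Control libraries reached 65.8 to 94.2, at least 24.6-fold higher than their day 3 (difference on the deposited scale 3.16, adjusted p = 1.28e-14). Selenbp1, a selenium-binding protein whose near-identical copy Selenbp2 may share its reads, read 3.41, 4.23, 0.999 and 0 at day 3 and 679.9, 615, 693 and 890.4 at day 7, and Pdzk1, a scaffold for membrane transporters, 3.41, 5.29, 5.00 and 5.49 at day 3 and 832, 849, 329 and 463 at day 7.

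**Figure D5:**
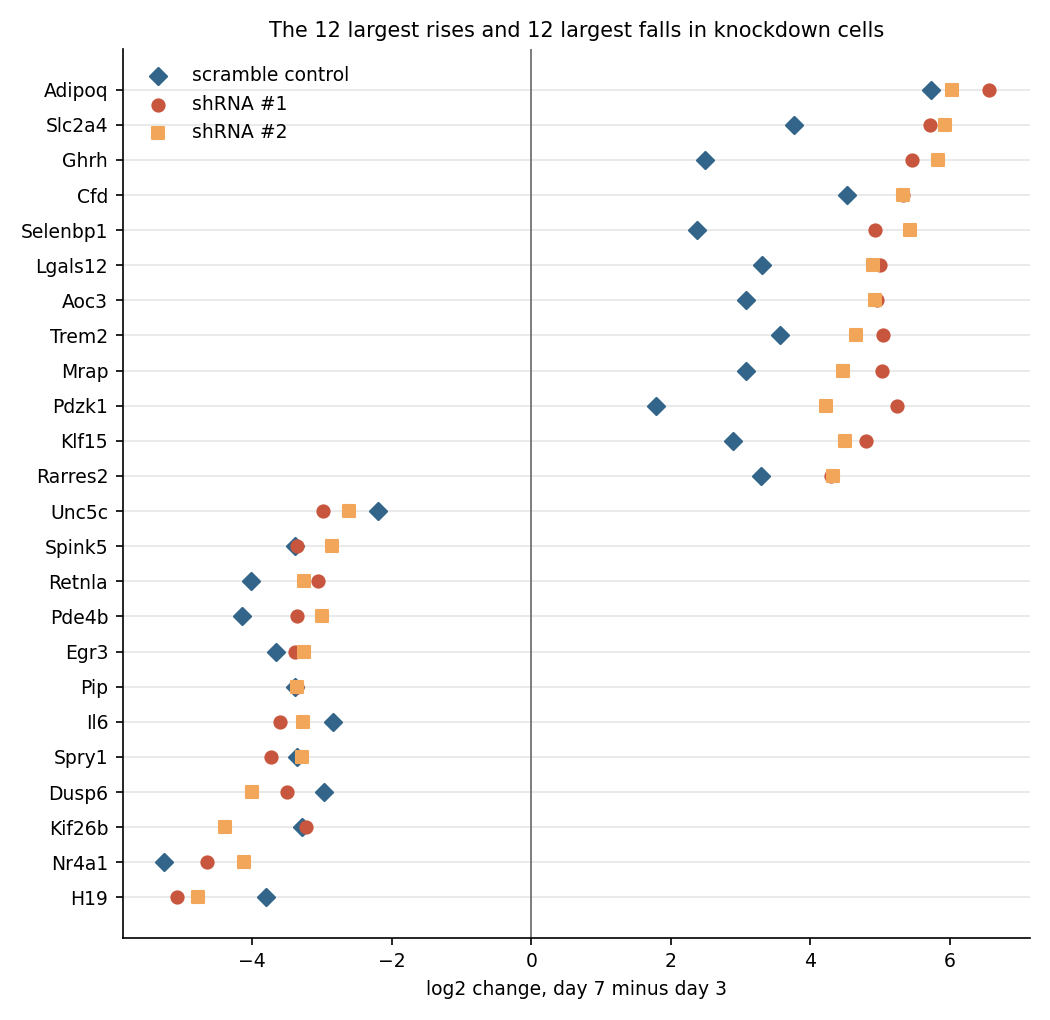
Log2 change from day 3 to day 7 (horizontal axis) of the 12 genes with the largest rise and the 12 with the largest fall in knockdown cells, with a point each for shRNA #1, shRNA #2 and scramble control. Every rise is larger in knockdown than in control cells on the deposited scale (by voom on rebuilt reads that of Adipoq and Mrap was not), widest for Ghrh, Selenbp1 and Pdzk1, and the falls lie on either side of the control.

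The 12 largest falls included H19, Dusp6 and Spry1. H19, an imprinted non-coding RNA (chromosome 7, 142575529 to 142578143), read 706, 533, 851 and 931 at day 3 and 1.01, 2.32, 13.6 and 17.5 at day 7, 87.6-fold lower (log2 -4.93, SE 0.12, adjusted p = 4.71e-16). Dusp6, a phosphatase of ERK, read 1505, 1361, 1751 and 1715 at day 3 and 100.5, 96.3, 94.4 and 68.2 at day 7, and Spry1, an inhibitor of receptor tyrosine kinases, 3592, 4741, 2695 and 2948 at day 3 and 296, 244, 287 and 220.2 at day 7. The days were fully apart for all of these genes, which was a condition of being named among the falls. Egr3, an immediate early factor, fell 18-fold and Il6, a cytokine, 35-fold. Dusp6 and Unc5c, a netrin receptor, fell further than in control cells, with differences of -0.78 (adjusted p = 9.1e-06) and -0.59 (adjusted p = 0.000176). Il6 did too (-0.60, adjusted p = 0.0116), a call lost with shRNA #2 alone against control. Nr4a1, Pde4b and Retnla fell less than in control cells. The difference of Retnla was 0.86 (adjusted p = 0.0343), a call lost in 11 of 29 alternatives. Spry1, Pip, Egr3, Spink5 and Kif26b did not pass the test of the difference. H19 differed by -1.13 (adjusted p = 6.86e-06) on the deposited scale and by 0.08 (adjusted p = 0.952) by voom on rebuilt reads.

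The keratin Krt8 and the glycosyltransferase B3gnt6 rose unequally with the hairpins. Krt8 (chromosome 15, 101996698 to 102004482), a keratin of simple epithelia, read 4.54, 1.06, 0 and 0 at day 3 and 621, 604, 46.1 and 100.3 at day 7, while control libraries were at 0 at day 3 and read 1.01 to 17.7 at day 7. The change on the deposited scale was 5.13 with shRNA #1 and 2.70 with shRNA #2 (adjusted p of the difference = 4.67e-05), and 0.54 in control cells. By voom on rebuilt reads the difference between the hairpins was -0.72 for Krt8 and was not called (limma's adjusted p = 0.808). That of B3gnt6 was not called by voom either (adjusted p = 0.729), though its size stayed at -2.59 to -2.11 over all 13 alternatives. Krt8, Krt18 and B3gnt6 passed the filter on low values only through the day 7 libraries, as 93 of 13259 tested genes did, so that a higher level at day 7 was a condition of their being tested. The same holds for Cox7a1, Pck1 and Ppara, which are counted among the members that rose in the respiratory chain, triglyceride synthesis and adipogenic factor lists. Krt18, its partner, rose at least 27.3-fold from a day 3 level of at most 3 reads in each library, and Krt19 rose 8.77-fold. The sum of 5 epithelial markers was 16 to 34.9 at day 3 and 254 to 991 at day 7, and Epcam and Cdh1 were at or near 0 at both days. B3gnt6, which extends mucin-type glycans, read 3.41, 4.23, 2.00 and 4.39 at day 3 and 340, 702, 54.5 and 82.8 at day 7, and Cyb561, a cytochrome, 142, 156, 153 and 143 at day 3 and 2954, 3009, 2111 and 2826 at day 7. Both rose with each hairpin, B3gnt6 by 4.68 and 2.39 and Cyb561 by 4.06 and 3.80.

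The hairpins gave similar changes over most genes and different ones over some. A test of the difference between the hairpins over the 8 libraries called 561 of 13259 genes (4.23%), 232 with a larger change with shRNA #2 (1.75%) and 329 with a smaller one (2.48%). With libraries scaled to equal totals the split was 357 and 213. The count fell to 179 with no filter on low values and to 28 without limma's trend and robust estimation, 21 of the 28 larger with shRNA #2. The count was 345 and 322 without replicate 1 or 2 of shRNA #1 at day 3, 358 and 286 without those of day 7, and 290 without replicate 2 of shRNA #2 at day 3. As a description over genes, the changes with shRNA #1 and shRNA #2 had a Pearson r of 0.95, and those of knockdown and control cells 0.87, and genes are not independent replicates. Genes with a larger change with shRNA #2 were led by Ifit1, Ifit3, Oasl2, Rtp4, Ifi44 and Mx2, all of the interferon list. Those with a smaller one were led by Krt8, B3gnt6, Lamb3, a laminin chain of epithelia, Prl2c3 and Prl2c2, near-identical members of the prolactin family that may share reads, and Cxcl5, a neutrophil chemokine. Lamb3 read 9.09, 13.8, 24 and 27.4 at day 3 and 656, 568, 252 and 341 at day 7, and Cxcl5 955, 745, 1495 and 1291 at day 3 and 779, 816, 600 and 519 at day 7. Lamb3 rose with both hairpins, and Cxcl5 changed by -0.08 with shRNA #1 and -1.25 with shRNA #2.

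Over the 13259 genes tested in both arms, 7913 were called in the same direction (59.7%), 1613 in knockdown cells alone and 1508 in control cells alone. Among those called in the same direction the change was larger in size in knockdown cells for 1857 and smaller for 822, with the difference called.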

How the data were processed

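RNA of 3T3-L1 cells was extracted with QIAshredder and RNeasy columns and made into TruSeq RNA libraries, per the labels' protocols. The authors deposited a table of log2 values for 20560 genes and 32 libraries, made with TopHat2 2.1.0, Bowtie2 2.2.6, SAMtools 1.3.1 and HTSeq 0.6.1, per the submitters' processing notes. The transform and the build and annotation used for counting are not given in the sources used here. The deposited log2 values follow the form of a regularized logarithm, which shrinks low values, so that log2 changes of genes with few reads are understated. Inverting that form gave reads within 0.1 of a whole number for 95.86% of all values (98.87% in the tested genes of the 8 libraries, where chance gives 20%), and levels are these reads divided by the size factors recovered with them. Of the gene IDs, 20521 matched GENCODE M21 (GRCm38), which gave the positions.

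Tests used the deposited values in limma 3.58.1 (R 4.3.3) with a mean-variance trend and robust estimation. Genes needed 2 to the power of the value to be at least 10 in at least 4 libraries. Day 7 against day 3 was fitted to the 8 knockdown libraries with the hairpin as a block, its difference from control to the 16 libraries of both days, and its difference between hairpins to the 8 knockdown libraries. P-values are two-sided and carry the Benjamini-Hochberg correction for all genes of a fit, with calls at an adjusted 0.05. A fold is a ratio of mean normalized reads; where a day 3 group had at most 3 reads in every library it was computed against that floor of 3 reads and is a lower bound.

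Named genes were the 12 largest rises and falls, the 6 largest differences each way, up to 3 called members each way of each of 30 gene lists (480 entries), and cell type markers. The rises, falls and differences were taken among called genes with a mean of at least 50. The rises and falls also needed all day 7 libraries to lie on the same side of all day 3 libraries. The libraries, lists and rules were chosen with earlier results of these data known. Genes named outside those rules were chosen after their values were seen. Alternatives were other filters, scalings, pseudocounts (1 and 8), fit settings and sets of libraries; voom on rebuilt reads and log2 of rebuilt normalized reads plus 1 were added after seeing the data. Replicates of a group differed by more than counting noise (chi-square per degree of freedom 3.99 to 7.32), so none was counted as a repeated library. Depth in the 16 libraries was 22280321 to 27179424 reads in genes. Promoters are from RefSeq (GRCm38.p6). Tables and figures used Python 3.11.15, numpy 2.4.6, scipy 1.17.1, pandas 2.3.3 and matplotlib 3.10.9. Days 0 and 11 enter only where named. A few list members are counted but not reported here by name.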

Additional observations from a re-analysis of the deposited data

Results flagged for a closer look

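In 4 of 88 groups of 4 knockdown libraries examined, 1 library stood far from the other 3 (by Dixon's ratio of gap to range at 95%), and chance flags about 1 in 20 such groups. The mean log2 level of the triglyceride synthesis list at day 3 was 8.78 in shRNA #2 replicate 2, above the 8.62 to 8.64 of the others. That of the preadipocyte and anti-adipogenic list at day 7 was 9.13 in shRNA #1 replicate 2, below the 9.24 to 9.25 of the others. Cdkn1a, a cyclin-dependent kinase inhibitor, had a log2 value of 13.08 in shRNA #2 replicate 2 of day 7, below 13.17 to 13.18. Nr4a1 had 13.28 in shRNA #1 replicate 1 of day 3, where the other libraries all read 13.36.

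For 25 of 56 named genes the change from day 3 to day 7 differed between the hairpins by limma's adjusted p (shRNA #2 minus shRNA #1, log2, 2 libraries a day each). Of these, 12 had been named for the size of this difference (Ifit1, Ifit3, Oasl2, Rtp4, Ifi44, Mx2, Krt8, B3gnt6, Lamb3, Prl2c3, Prl2c2 and Cxcl5), so their calls follow from the choice. Of the other 44, 13 were called, and over all genes tested 561 of 13259 (4.23%). In the interferon list the change was larger with shRNA #2, by 2.06 for Ifit1, 1.86 for Ifit3, 1.56 for Ifit3b, 1.79 for Oasl2, 1.79 for Rtp4, 1.60 for Ifi44, 1.57 for Mx2 and 1.49 for Isg15. Among fat cell genes the difference was -0.97 for Scd1, -0.88 for Fasn, -0.88 for Lpl and -0.67 for Fabp4, so their change was smaller with shRNA #2, and 0.49 for Cebpd. Of genes that fell, Nr4a1 (0.52), Pde4b (0.37) and Unc5c (0.36) fell less with shRNA #2 and Kif26b (-1.16) fell more. The calls of Pde4b and Unc5c were lost in 9 and 10 of 18 alternatives (adjusted p up to 0.285 and 0.204), 7 of each by leaving out 1 library: every one but replicate 2 of shRNA #1 at day 7 for Pde4b, and every one but replicate 1 of shRNA #2 at day 7 for Unc5c. Those of Fasn and Pdzk1 were lost in 10 and 7, and those of Fabp4, Col1a1 and Kif26b in 4 each. That of Fabp4 was lost without replicate 1 or 2 of shRNA #2 at day 3, that of Col1a1 without replicate 2 of shRNA #1 at day 3 or replicate 1 of shRNA #1 at day 7 (adjusted p up to 0.151 and 0.174 over all alternatives), and that of Kif26b by voom on rebuilt reads, among others (-0.32, adjusted p = 0.832). The largest negative differences were those of Krt8 (-2.44) and B3gnt6 (-2.30). Their calls were lost in 3 and 2 of 13 alternatives, both by voom on rebuilt reads (adjusted p = 0.808 and 0.729). The difference of Krt8 shrank to -0.72 by voom, while that of B3gnt6 stayed at -2.59 to -2.11 over the 13 alternatives. The differences of Lamb3 (-1.50), Prl2c3 (-1.45), Prl2c2 (-1.19), Cxcl5 (-1.17), Pdzk1 (-1.02) and Col1a1 (-0.34) were negative too.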

How the results depend on the processing

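The count of 9806 genes called in knockdown cells ran from 8820 to 10353 over the alternatives, and from 9348 to 9493 when 1 library was left out. The count of 4449 differences from control ran from 3794 to 4961, and from 4069 to 4475 when 1 library was left out. Scaling to equal totals moved the share of higher calls among these differences from 54.4% to 44.8%. The count of 561 differences between hairpins was the least stable. It was 179 with no filter, 28 without the trend and robust estimation, 286 to 687 when 1 library was left out, and under equal totals the share larger with shRNA #2 went from 41.4% to 62.6%. The cause was not tested.

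Of 4003 values of 175 genes in knockdown cells under the alternatives, 3965 kept their direction and side of the threshold, 24 lost the call and 12 gained it. The other 2 changed sign, called neither in the reported fit nor after the turn: Ifit1 at -0.23 with shRNA #1 alone and Fasn at -0.24 with shRNA #2 alone. Of 1439 values for 50 genes in the difference from control, 36 lost the call, 13 gained it and 17 changed sign. Of these, 4 belong to called differences, none called after the turn: Adipoq, at -0.73 by voom and -0.70 on log2 of rebuilt normalized reads plus 1, Mrap at -0.12 and H19 at 0.08 by voom. The other 13 belong to differences that had not passed the test either: Zbtb9 at 0.06 by voom and 0.12 on log2 of rebuilt normalized reads plus 1, Cebpd at -0.11 and Kif26b at 0.04 with shRNA #1 against control, Col1a1 at -0.13 and Spry1 at 0.07 with shRNA #2 against control, and Pip at 0 under equal totals and -0.05 with a pseudocount of 8. Leaving out 1 library gave -0.02 to 0.08 for Col1a1 and -0.05 to 0.13 for Pip. Of 440 values for the 25 called differences between hairpins, 67 lost the call and none turned. In knockdown cells 80 of 689 list medians moved by more than the spread between libraries. The labels number the replicates of every group, but libraries with the same number did not deviate together (correlations of 0.01 to 0.09), so the numbers were not taken as pairs. With the replicate block the counts were 9639, 4262 and 837. Genes at or under 3 reads at day 3 have only lower bounds for their folds.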

Other observations

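Brown fat markers were low. The sum of the 6 measured was 448 to 516 normalized reads at day 3 and 156 to 283 at day 7 in knockdown cells, nearly all of it Ppargc1a, the only member tested, which fell. Dio2 had a mean of 4.98 at day 3 and 0.254 at day 7, while Elovl3 (4.47 and 8.60), Cidea (0.852 and 3.62), Prdm16 (0.265 and 1.24) and Cox8b (0 and 0.552) had higher means at day 7, all at few reads. Endothelial markers summed to 9.88 to 15.9 at day 3 and 42.0 to 71.1 at day 7. Both members tested were called higher by limma, Pecam1 by 0.63 (adjusted p = 0.000226) and Vwf by 0.71 (adjusted p = 0.000623), at means of 28.2 and 21.5 normalized reads at day 7. Markers of cartilage and bone summed to 447 to 554 at day 3 and 379 to 473 at day 7, most of it Runx2, which did not pass the test (log2 -0.16, adjusted p = 0.0848). Ucp1, Zic1, Myod1, Myog, Adgre1 and Tyrobp had no entry under these symbols among the genes with deposited values, and Rbp4 was not analysed here.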
